A study of Homo sapiens with 36 samples.

Results

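The transcripts of 10 glycolytic enzymes, GPI, ALDOA, TPI1, GAPDH, PGK1, PGAM1, ENO1, PKM, LDHA and LDHB, were followed across 3 tables of methylated adenosines. Every site that the tables assign to one of these genes was taken, whatever its values. This gave 328 listed entries at 225 distinct positions, out of 100897 entries at 82971 positions in all. HEK293T listed 122 of these sites in 10 genes, BE(2)-C without ATRA 137 in 9 genes and BE(2)-C with ATRA 69 in 9 genes, out of 57011, 22855 and 21031 sites. LDHA was listed in HEK293T only.

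N6-methylated adenosines had been mapped at single-base resolution by m6ACE, a method based on antibody crosslinking and exonuclease digestion. One siRNA targeted PCIF1 (siPcif1) and a scrambled siRNA (siScram) served as control. The cells were HEK293T, a human embryonic kidney line, and BE(2)-C, a human neuroblastoma line kept without or with ATRA (all-trans retinoic acid, which drives neuroblastoma cells to differentiate) at 10 uM over 4 days, with RNA taken 24 h after siRNA per the labels. Each of the 6 combinations had 3 m6ACE libraries and 3 input libraries, 36 samples in all. DMSO appears in the name of the BE(2)-C table without ATRA but not in its samples' labels, so the vehicle is not settled. The growth and treatment text in the labels was written for BE(2)-C and serves all samples, and it calls HEK293T neuroblastoma, so no treatment times of its own were found for HEK293T. The tables hold no expression level, so the depletion of PCIF1 was not checked. The labels do not tie replicates to separate cultures. The p-values therefore reflect only how these libraries varied, and that variation may be technical.

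Glycolysis converts glucose to pyruvate in the cytosol and regenerates ATP and NADH. GPI turns glucose-6-phosphate into fructose-6-phosphate, ALDOA splits fructose-1,6-bisphosphate, and TPI1 interconverts the triose phosphates. GAPDH, PGK1, PGAM1, ENO1 and PKM carry out the later steps to pyruvate, and lactate dehydrogenase, built from LDHA and LDHB subunits, interconverts pyruvate and lactate. Methyl groups on adenosine reach an mRNA by separate routes. PCIF1 writes m6Am when the first transcribed nucleotide after the cap is an adenosine, whereas METTL3 writes internal m6A, mostly within DRACH (A, G or T, then A or G, then the methylated A, then C, then A, C or T).

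Many of the sites named below lie at or near annotated transcript starts. In HEK293T 20 5'UTR sites of these genes lay within 50 bases of a RefSeq start and 20 lay further away. Windows of 21 bases on the transcript strand, from RefSeq GRCh38.p14, show the surroundings of some sites near a start. The deposited 5-base motif is in capitals, with the methylated adenosine in the middle of the capitals. The sequences at hand did not cover the GAPDH and PGAM1 5'UTR sites, so these have no window. Distances count from the nearest RefSeq start, which is 0, with positive values downstream.

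GPI, chr19:34364982-34365002, plus strand, distance 0: acttccggGCAGAggccagca
TPI1, chr12:6867523-6867543, plus strand, distance 2: gactgcgcGCAGAcactgacc
PGK1, chrX:78104209-78104229, plus strand, distance -29: gtggggcgGTAGTgtgggccc
PGK1, chrX:78104245-78104265, plus strand, distance 7: ggtgttccGCATTctgcaagc
ENO1, chr1:8878676-8878696, minus strand, distance 0: cggcgcggACAGTatctgtgg
PKM, chr15:72231191-72231211, minus strand, distance -11: aggctgagGCAGTggctcctt
LDHA, chr11:18394586-18394606, plus strand, distance 33: tccggatcTCATTgccacgcg
LDHB, chr12:21657827-21657847, minus strand, distance 5: ccctccttGCAGAgccggcgc

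A further window shows a TPI1 site whose level was low although it lies a short way downstream of the high one.

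TPI1, chr12:6867537-6867557, plus strand, distance 16: actgacctTCAGCgcctcggc

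By class medians in HEK293T, the sites annotated as 5'UTR had the higher levels and the negative changes. The coding and 3'UTR sites, called internal here, were low and nearly level by median. Some coding-annotated TPI1 and GPI sites at or next to a start were also high with negative changes, and are described below. The quantity is the relative methylation level (RML), a deposited ratio; neither its formula nor any scaling of the libraries was given in the sources used. Changes are siPcif1 minus siScram on the scale log2(RML + 0.298) in HEK293T, with 0.502 and 0.857 added in BE(2)-C without and with ATRA, so changes of low sites are understated. Levels are not tested between the 3 tables. The median siScram RML was 3.52 over the 41 5'UTR sites and 0.257 over the 79 internal sites. The median change was -0.72 for the 5'UTR sites and 0.02 for the internal sites, beside -0.65 and 0.01 over all sites of these classes in the table.

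Of the 41 5'UTR sites in HEK293T, 39 had a negative change (86.1% of all 5'UTR sites in the table). In 18 every siPcif1 library lay below every siScram library. That is 43.9% of them, and the same separation held for 32.9% of all 5'UTR sites in the table. None of the 41 separated upwards, against 0.937% in the table. Among the 79 internal sites 7 separated downwards and 1 upwards, against 5.4% and 6.14% of all internal sites. Two-sided limma tests with Benjamini-Hochberg adjustment over the whole HEK293T table called 0 sites at an adjusted p of 0.05, in these genes and in the table (0%). At an unadjusted p of 0.05, 16 of the 41 were lower, against 30.3% of all 5'UTR sites, and 3 of the 79 internal sites were lower and 0 higher, against 3.05% and 3.45%.

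**Figure D1:**
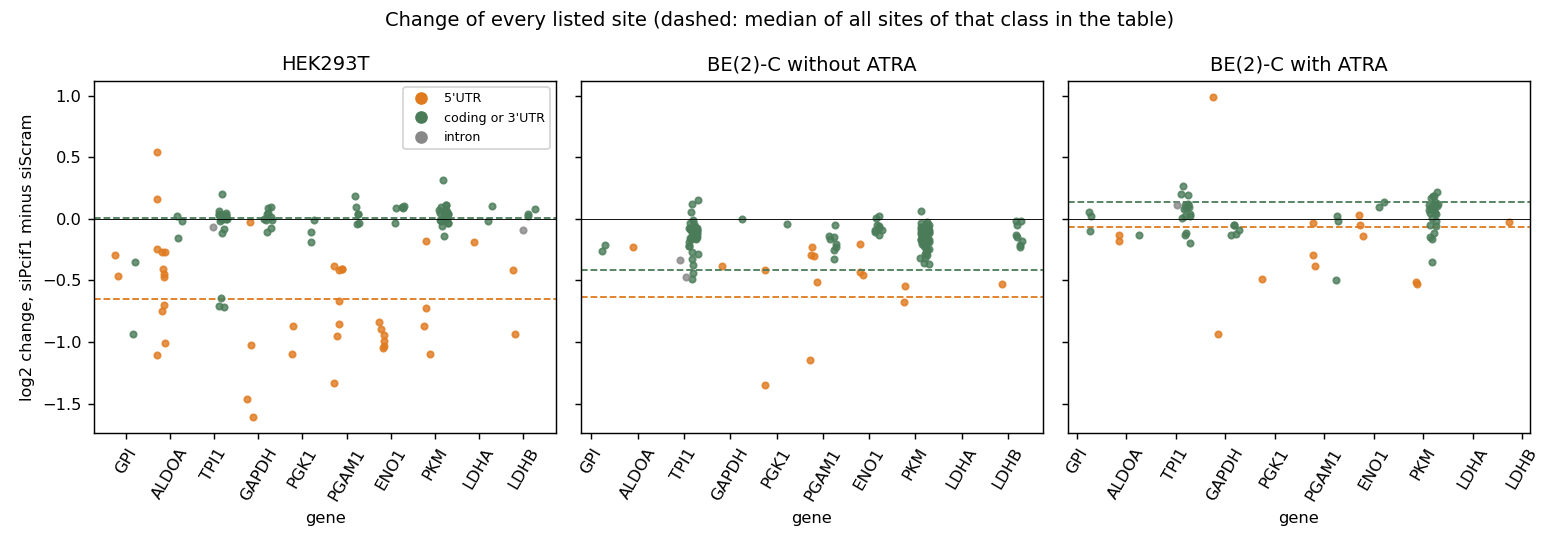
Change of every listed site on the log2 scale (vertical axis, siPcif1 minus siScram) by gene in pathway order, in the 3 tables. Orange points are 5'UTR sites, green points coding or 3'UTR sites and grey points intron sites, and dashed lines are the medians of all sites of that class in the table. In HEK293T 39 of 41 orange points lie below 0, while the green points centre on 0.02.

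The same split showed in each library. In the 3 siScram libraries of HEK293T the median log2 level of the 5'UTR sites exceeded that of the internal sites by 2.46 ± 0.29 (SD, n = 3), and by 1.86 ± 0.21 in the siPcif1 libraries. All siPcif1 libraries lay below all siScram libraries. In BE(2)-C without ATRA the excess was 1.89 ± 0.16 with siScram and 1.15 ± 0.17 with siPcif1 (SD, n = 3), again without overlap. The drop there depended on how it was taken. It was -0.74 between these library medians, -0.34 with sites within 50 bases of a RefSeq start set against all others, and -0.29 between the median changes of single sites. With ATRA the excess was 1.88 ± 0.20 and 1.52 ± 0.29 (SD, n = 3), and the groups overlapped. Over all sites of the tables the siScram excess was smaller, 1.09 ± 0.01, 1.14 ± 0.02 and 1.10 ± 0.15 (SD, n = 3) in the same order. With siPcif1 it was 0.36 ± 0.07, 0.87 ± 0.05 and 0.86 ± 0.14. The drop over all sites was thus -0.73 in HEK293T, beside -0.60 for the enzymes, and -0.27 and -0.24 in the BE(2)-C tables, beside -0.74 and -0.36. These gaps nearly vanished when sites within 50 bases of a RefSeq start were set against all others. The drops were then -0.87, -0.34 and -0.31 for the enzymes, and -0.83, -0.34 and -0.31 over all sites, in the same order. These differences between the enzymes and the tables were not tested.

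**Figure D2:**
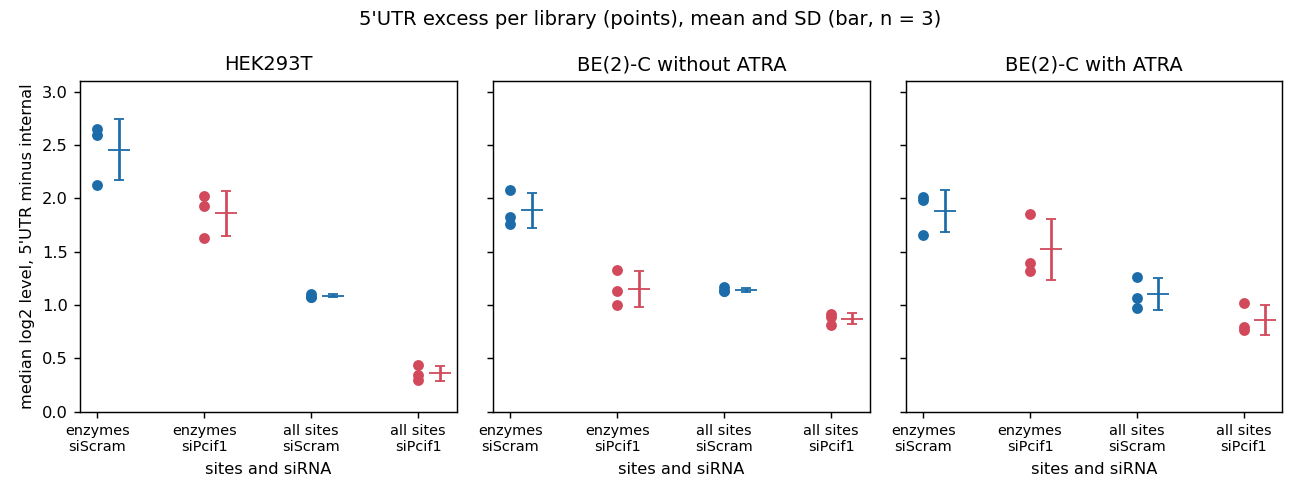
Median log2 level of the 5'UTR sites minus that of the internal sites (vertical axis) in each library, for the 10 enzymes and for all sites of the table. Points are libraries and bars are the mean and SD of 3. In HEK293T the enzymes' mean is 2.46 with siScram and 1.86 with siPcif1 without overlap, and with ATRA the groups overlap.

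RML values differ in how finely they are graded. Some values recur exactly at many sites of a library, and others occur once. In HEK293T 23 of the 41 5'UTR sites and 76 of the 79 internal sites took values that recurred, in the median of the 6 libraries, at no more than 10 sites, compared with 15.6% and 22.3% of these classes in the table. All 23 of these 5'UTR sites had a negative change, beside 1729 of 1930 such sites in the table. Among the 23, 15 separated downwards, beside 52.2% of the table's 5'UTR sites of this kind. Of the 18 coarser sites 16 were negative, beside 8926 of 10444 in the table. Downwards 3 of the 18 separated, beside 29.3% of the table's coarser 5'UTR sites. Read counts were not inferred from the ratios.

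GPI had 4 sites in HEK293T. The highest lay exactly on a RefSeq start, at 34364992 on chromosome 19, although the tables annotate it as coding. Its RML was 5.80, 8.60 and 24.5 in the siScram libraries and 3.43, 5.83 and 8.12 in the siPcif1 libraries. The third siScram library was far above the rest and the groups overlapped, with a change of -0.94 (SE 0.58, limma adjusted p = 0.588). Its 6 values recurred at a median of 155.5 sites. A GPI 5'UTR site with motif TCAGT was listed both on chromosome 19, at 34365246, and on an alternate sequence of that chromosome, with siScram means of 0.651 and 0.639, and the 2 entries cannot be told apart by motif.

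ALDOA had 12 5'UTR sites in HEK293T, spread over several annotated starts. The site with the smallest p was at 30064484 on chromosome 16, 13 bases upstream of a start. It gave 0.331, 0.352 and 0.291 with siScram and 0.185, 0.135 and 0.157 with siPcif1. The groups did not overlap, and the change of -0.45 (SE 0.10, limma adjusted p = 0.170) had the smallest p of all 122 sites. Its level was low, near the pseudocount. The only positive 5'UTR changes in HEK293T, 0.54 and 0.16, were also ALDOA sites, at 30063967 and 30064670, and both overlapped between groups. The second gave 7.63, 5.06 and 9.64 with siScram and 3.31, 12.6 and 12.5 with siPcif1.

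TPI1 had no site annotated as 5'UTR in any table, yet it had one of the highest start levels. Its site at 6867533 on chromosome 12, annotated as coding and 2 bases downstream of a RefSeq start, gave 18.2, 30.9 and 21.8 with siScram in HEK293T and 12.2, 13.0 and 17.2 with siPcif1. The groups did not overlap, and the change was -0.71 (SE 0.43, limma adjusted p = 0.574). A neighbour 6 bases downstream of that start, at 6867537, gave siScram and siPcif1 means of 15.1 ± 2.85 and 9.21 ± 2.33 (SD, n = 3). Further downstream the levels were far lower. The sites 16, 30 and 36 bases downstream of the start had siScram means of 0.266, 0.156 and 0.119 and changes between 0.02 and 0.03. In HEK293T 7 coding-annotated sites of these genes, 6 in TPI1 and 1 in GPI, lay within 50 bases of a RefSeq start. In the table as a whole the 377 coding-annotated sites within 50 bases of a start had a median change of -0.62, close to that of the 5'UTR class.

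**Figure D3:**
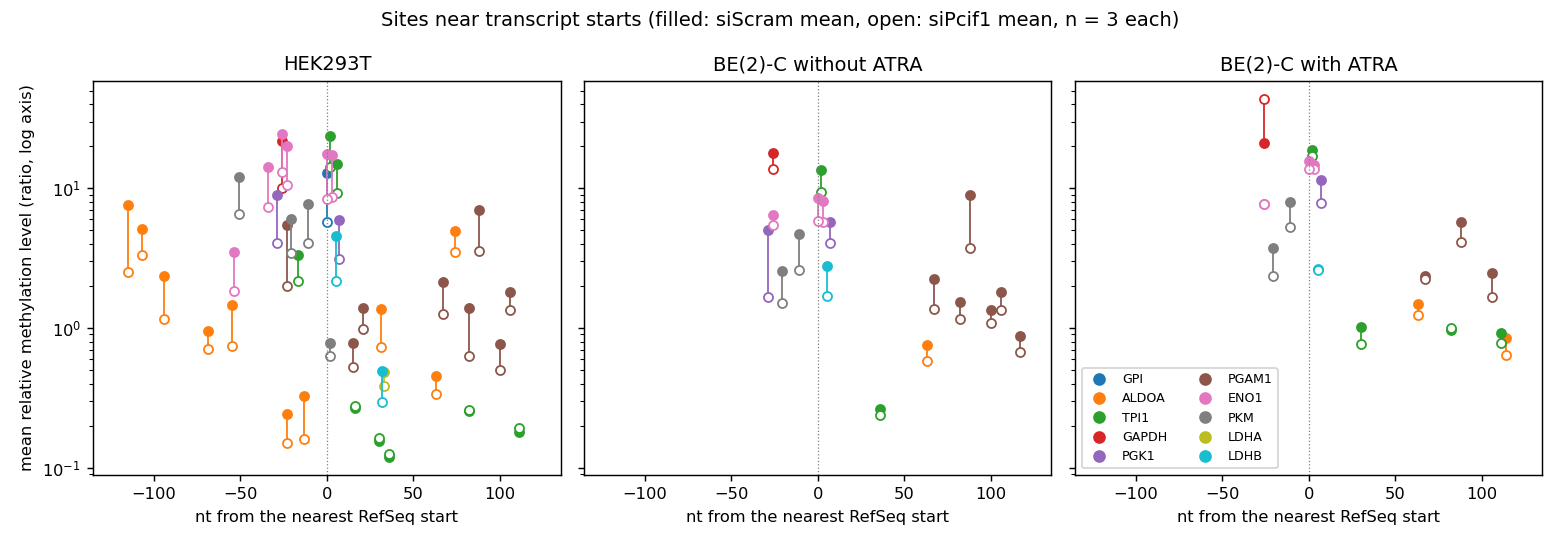
Mean RML (vertical log axis, n = 3) of sites within 130 bases of the nearest RefSeq start (horizontal axis, bases), coloured by gene, with filled points for siScram and open points for siPcif1. In HEK293T the levels above 10 cluster between 51 bases upstream and 6 bases downstream of a start, and nearly all open points lie below the filled ones.

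GAPDH gave its highest level at 6534491 on chromosome 12, 26 bases upstream of a start, with the motif ATAAA. In HEK293T the values were 25.9, 11.95 and 27.4 with siScram and 7.94, 11.4 and 10.7 with siPcif1. The groups did not overlap, and the change was -1.02 (SE 0.47, limma adjusted p = 0.428). With ATRA the same site gave 13.9, 28.3 and 21.0 against 62.7, 43.1 and 25.4. These groups overlapped, and the change of 0.99 (SE 0.54) had an adjusted p that rounds to 1. A second GAPDH site, at 6534788 and 271 bases downstream of a start, gave 9.92, 6.26 and 4.97 with siScram and 1.84, 1.79 and 2.50 with siPcif1 in HEK293T. Its change of -1.61 (SE 0.40, limma adjusted p = 0.196) was the most negative of all 122 sites, although its values were coarse and recurred at a median of 406 sites. With ATRA it was also lower without overlap, with a change of -0.93.

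PGK1 carried the only glycolytic site that passed the test in any table. At 78104219 on chromosome X, 29 bases upstream of a start and with the motif GTAGT, BE(2)-C without ATRA gave 6.11, 3.81 and 5.07 with siScram and 1.59, 2.26 and 1.16 with siPcif1. The groups did not overlap and the change was -1.35 (SE 0.35, limma adjusted p = 0.0140). It was 1 of the 15 5'UTR sites and 1 of the 137 sites of any kind listed there. Beside it, 8.57% of all 5'UTR sites and 3.69% of all sites in the table were called lower. The call was lost when each library was centred on its median, where the change was -0.87, and without a variance trend. It was also lost when siScram replicate 2 or 3 or siPcif1 replicate 1 or 3 was left out, with adjusted p between 0.0686 and 0.189. This fit had 91420 total degrees of freedom, so its variance came almost wholly from the other sites. In HEK293T the same site gave 6.86, 7.89 and 11.98 against 2.61, 4.04 and 5.53, again without overlap. A second PGK1 site, 7 bases downstream of the start at 78104255, gave 6.04, 6.36 and 5.47 against 2.84, 2.97 and 3.60 in HEK293T. These groups lay clearly apart, with a change of -0.87 (SE 0.37, limma adjusted p = 0.384).

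PGAM1 had 8 5'UTR sites in HEK293T, and all 8 changes were negative, from -0.38 to -1.34. Its highest site was at 97426279 on chromosome 10, 88 bases downstream of the start. BE(2)-C without ATRA gave 6.41, 10.1 and 10.5 there with siScram and 2.90, 4.12 and 4.23 with siPcif1, without overlap. The change was -1.15 (SE 0.43, limma adjusted p = 0.0915), while HEK293T gave -0.95 with overlap and BE(2)-C with ATRA -0.29 with overlap. In contrast, the 3'UTR site of PGAM1 at 97432834, a DRACH site with the motif GGACT, was level in HEK293T. It gave 2.10, 2.13 and 2.18 against 2.50, 1.81 and 1.97 there, with a change of -0.04 (SE 0.32). Without ATRA it gave 2.90, 3.27 and 3.69 against 2.31, 2.77 and 2.45, with every siPcif1 library below every siScram library and a change of -0.33 (SE 0.35). With ATRA the change was -0.02. This site had the highest internal level of these genes beyond 50 bases from a start in HEK293T.

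ENO1 had the highest 5'UTR levels in HEK293T. At 8878686 on chromosome 1, exactly on a RefSeq start, the values were 15.6, 20.3 and 17.0 with siScram and 6.97, 8.55 and 9.74 with siPcif1. The groups were far apart relative to their spread, with a change of -1.05 (SE 0.41, limma adjusted p = 0.347), and no other site of the table shared any of the 6 values. The 5 other ENO1 5'UTR sites, from 54 bases upstream to 3 bases downstream, had changes between -0.84 and -1.03, and the highest siScram mean was 24.4 ± 5.92 (SD, n = 3) at 8878712. Sites this close may share reads, so they are not independent. Of the 6 ENO1 5'UTR sites in HEK293T 3 separated downwards, against 32.9% of all 5'UTR sites in the table. The sites at 8878712, 8878720 and 8878740 overlapped between groups. In BE(2)-C without ATRA the site on the start gave 5.61, 9.09 and 10.7 against 5.56, 6.36 and 5.62. The groups overlapped, and the first siScram library sat with the siPcif1 libraries. With ATRA the change was -0.14, from 16.04, 20.4 and 10.7 to 14.3, 12.2 and 14.8.

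Of the 4 PKM 5'UTR sites in HEK293T 1 separated downwards. The sites at 72231188, 72231211 and 72231241 overlapped between groups there, with changes of -0.18, -0.72 and -1.10. The last of these had the highest siScram mean of the 4. The site at 72231211 overlapped without ATRA as well, but separated downwards with ATRA. PKM had the one 5'UTR site whose siPcif1 libraries lay below its siScram libraries in all 3 tables. At 72231201 on chromosome 15, 11 bases upstream of a start, HEK293T gave 8.15, 6.67 and 8.22 with siScram and 3.48, 3.76 and 5.03 with siPcif1. Without ATRA the values were 2.99, 4.52 and 6.55 against 2.73, 2.55 and 2.56, and with ATRA 7.63, 9.71 and 6.69 against 5.97, 5.11 and 4.85. The changes were -0.87, -0.68 and -0.51. The limma adjusted p-values were 0.409, 0.214 and 1.00.

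LDHB had its main site 5 bases downstream of the start, at 21657837 on chromosome 12. HEK293T gave 3.19, 4.09 and 6.42 with siScram and 2.23, 1.93 and 2.34 with siPcif1, without overlap and with a change of -0.93 (SE 0.39, limma adjusted p = 0.376). With ATRA the site was level, with 2.59, 2.68 and 2.64 against 2.58, 2.73 and 2.45. LDHA, the partner subunit, had a single 5'UTR site, 33 bases downstream of its start at 18394596 on chromosome 11. That site was low and overlapping, with 0.497, 0.368 and 0.578 against 0.353, 0.417 and 0.380.

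**Figure D4:**
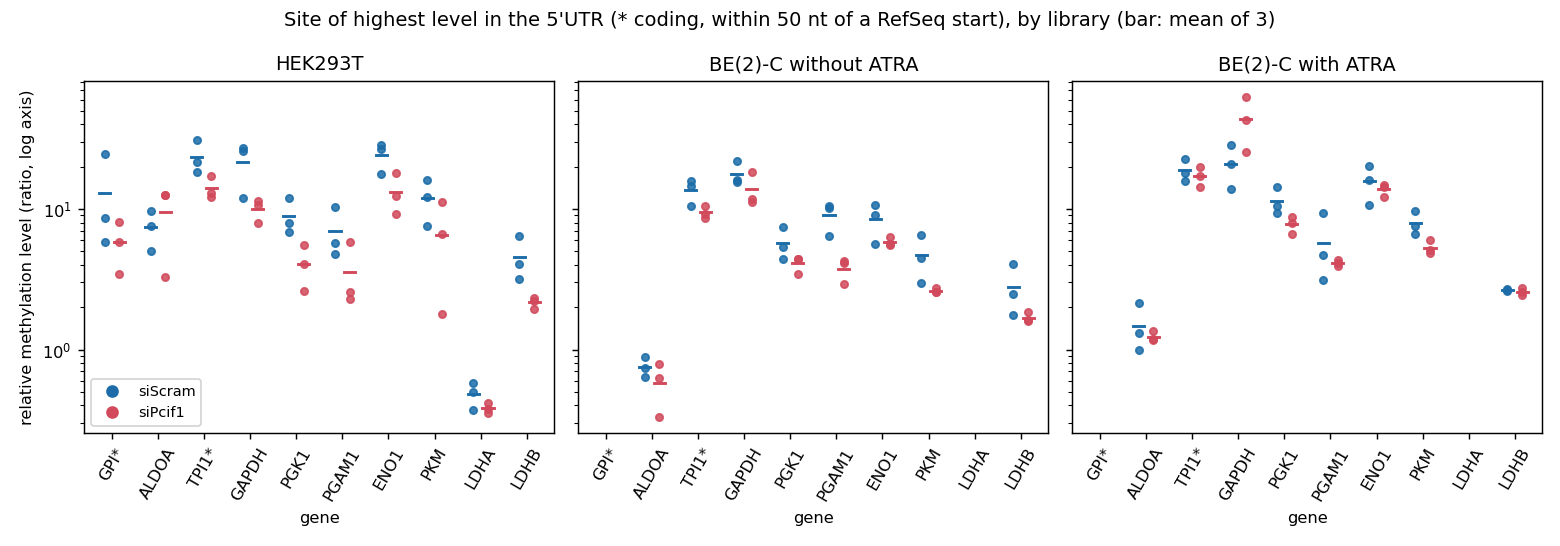
RML (vertical log axis) of the 5'UTR site with the highest mean level in each gene, by library, with bars for the mean of 3. For genes marked with an asterisk the highest coding-annotated site within 50 bases of a RefSeq start is shown. LDHA sits lowest in HEK293T, and GAPDH is the one gene whose siPcif1 mean exceeds the siScram mean with ATRA.

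Inside the transcripts the levels were low for these tables. The median internal site of the 10 genes ranked at percentile 3.34 of all HEK293T sites by siScram RML, at 6.87 without ATRA and at 4.58 with ATRA. In HEK293T 47 of the 79 internal sites had a mean level below the pseudocount. DRACH motifs were found at 17 of the 79, or 21.5%, compared with 60.3% of all internal sites of the table. These 17 DRACH sites had a median change of 0.04, and none separated in either direction, beside 4.84% downwards and 6.43% upwards over the table's internal DRACH sites. In 5'UTR sites the motif BCA (C, G or T, then C, then the methylated A), a common start context, was found at 16 of the 41, against 54.7% in the table.

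PKM and TPI1 held most internal sites. Within 200 bases of its coding sequence, from 72208633 to 72208807, PKM had 29 sites in BE(2)-C without ATRA and 13 with ATRA, of which 1 was a DRACH site in each. Their siScram means ran from 0.352 to 1.48 without ATRA, and the median changes were -0.11 and 0.11. TPI1 had 14 sites between 6869106 and 6869302 without ATRA, with 4 separated downwards and none upwards, beside 25.8% and 0.128% of all internal sites of the table. Just upstream of that run, an intron-annotated TPI1 adenosine at 6869097 ranked at percentile 63.7 of all sites by level in HEK293T, 93.7 without ATRA and 96.6 with ATRA. Without ATRA it gave 8.82, 9.06 and 12.2 with siScram against 10.3, 5.97 and 7.54 with siPcif1, with a change of -0.34 (SE 0.48). It gave 4.04, 2.40 and 3.68 with siScram against 3.36, 2.87 and 3.21 with siPcif1 in HEK293T, a change of -0.06 (SE 0.37). With ATRA it gave 11.0, 20.5 and 12.3 against 19.4, 14.97 and 12.3, also overlapping.

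In BE(2)-C without ATRA all 15 5'UTR sites had a negative change (95.7% in the table). Among them 3 separated downwards (37% in the table) and 2 were lower at an unadjusted p of 0.05 (36.5%). The median change of these sites was -0.43, beside -0.64 over the table's 5'UTR sites. Internal sites were negative in 113 of 120 cases (95.8% in the table), with a median of -0.13 beside -0.41 in the table. Without a pseudocount these medians were -0.25 and -0.54. The median siScram RML of the internal sites was 0.70, beside 2.51 in the table, so the added constant shrinks the enzymes' changes more. Downwards 10 of the 120 separated (25.8%). The siPcif1 libraries of this table were lower at all kinds of site. Their library medians over all sites were 1.51 to 1.87, against 1.82, 2.76 and 3.29 with siScram. Without the first siScram library, which lay among the siPcif1 libraries, 40 of the 137 sites were called lower in place of 1, beside 53.3% of all sites of the table. When the libraries were centred on their medians, the 5'UTR median of the 10 genes turned from negative to 0.054 and the internal median to 0.35. Negative changes were then left at 6 of the 15 5'UTR sites, beside 1405 of 2147 in the table. Among the 120 internal sites 1 stayed negative, beside 7976 of 19492. Changes of low sites are held near 0 by the added constant, so centring tends to turn them positive. With ATRA 12 of 14 5'UTR sites were negative (57.6% in the table), with a median change of -0.16 beside -0.06 in the table. Among the 14, 4 separated downwards (9.03%) and 1 was lower at an unadjusted p of 0.05 (5.85%). None of the 54 internal sites separated in either direction (0.801% lower and 4.79% higher in the table), and 0 sites passed the adjusted test.

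Of the 225 positions 29 were listed in all 3 tables, and 12 of these were 5'UTR sites. All 12 were negative in HEK293T and without ATRA, and 10 with ATRA. Of all 5'UTR sites 86.1%, 95.7% and 57.6% were negative in these tables, in the same order. With each library centred, the changes of the 12 without ATRA went both ways, from -0.67 to 0.28. After centring each library on its median, the change was more negative in HEK293T than in both BE(2)-C tables at 9 of the 12, a comparison that was not tested. Whether the siPcif1 change differed between BE(2)-C with and without ATRA was tested as an interaction at the 42 glycolytic sites listed in both. The limma test called 0 of the 42, while 0.0897% of the 7800 shared sites were called, all with a less negative or more positive change with ATRA. At an unadjusted p of 0.05 it also called 0 of the 42, against 16.7% of shared sites towards higher and 0.128% towards lower. These directions depended on the scaling. The median difference of the 42 sites was 0.27 as deposited and -0.35 after centring each library, while that of all shared sites went from 0.54 to -0.08. In the centred fit 10 of the 42, of which 3 were 5'UTR and 7 internal sites, had an unadjusted p of at most 0.05, all towards lower, beside 9.81% of shared sites towards lower and 3.19% towards higher. None passed the adjusted limma test there (0% of shared sites), and the smallest adjusted p was 0.192. Centring shifted all 42 differences alike, whereas the added constants had already held those of low sites near 0. Low sites thus tend towards lower after centring, and at the low PKM site 72208807 the difference went from 0.03 to -0.59. The smallest adjusted p without centring, 0.298, belonged to GAPDH 6534491, with a difference of 1.37 (SE 0.68).

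Other genes of glucose use were taken from a list of 27, of which 19 had sites in HEK293T. Their 37 5'UTR sites had a median change of -0.75, beside -0.65 over all 5'UTR sites of the table. Of the 37 sites 33 were negative (89.2%, against 86.1% in the table). Downwards 10 separated (27.0%, against 32.9%) and upwards 0 (against 0.937%). The median level of their internal sites, 1.71, was higher than the 0.257 of the 10 enzymes. SLC16A1, a lactate and pyruvate transporter, had the highest 5'UTR level, 35.8 ± 8.61 with siScram and 21.5 ± 3.71 with siPcif1 (SD, n = 3), without overlap. SLC2A1, the glucose transporter GLUT1, was level in HEK293T, with 16.7 ± 5.19 and 15.9 ± 4.52 (SD, n = 3). With ATRA the same SLC2A1 site gave 31.7, 15.9 and 53.9 against 7.47, 14.2 and 6.91, without overlap and with a change of -1.65 (limma adjusted p rounding to 1). Without ATRA its change was -0.14, with overlap. PDHB, a subunit of pyruvate dehydrogenase, went the other way with ATRA, with 4.23, 4.10 and 4.04 against 13.9, 10.3 and 6.63. Those groups did not overlap, and the change of 1.11 also had an adjusted p rounding to 1. Of the 8 5'UTR sites of the list with ATRA 1 separated downwards and 1 upwards, against 9.03% and 2.61% of the table's 5'UTR sites. PFKP and HK1, which carry out early phosphorylations of the sugar, and PGM2, a phosphoglucomutase, were the other leading genes in HEK293T. The PFKP site on the RefSeq start gave 38.9, 14.2 and 13.2 against 7.35, 8.07 and 6.87 there. The list added 5 5'UTR sites without ATRA and 8 with ATRA, with median changes of -0.77 and -0.48.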

How the data were processed

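Per the file headers, the authors deposited 1 table per context with the RML of each m6ACE library as a ratio, each group's mean, p-values and a log2 fold change. The authors used DESeq2, STAR, Bowtie2, cutadapt 3.7 and bcl2fastq 2.20 with hg38, per the submitters' processing notes, which give no roles or order. At every site the authors' deposited p-value was no higher than 0.05 in siScram, siPcif1 or both, so the tables list called sites alone. In HEK293T 117 of the 122 glycolytic sites were called in siScram and 100 in siPcif1. Without ATRA these were 122 and 117 of 137, and with ATRA 48 and 53 of 69. A site could thus be listed on the call of 1 group alone, and the counts of lower and higher sites were not split by this. Input libraries have no column. The depth behind a ratio is unknown, and counting intervals could not be made. GAPDH, ENO1, PGAM1 and other members have processed pseudogenes, and how reads with several matches were treated is unstated, so their ratios may include reads of near-identical copies. Here log2(RML + the 5th percentile of the table) was fitted with limma 3.58.1 (lmFit, eBayes with a trend, R 4.3.3) per table on all sites, with Benjamini-Hochberg adjustment at 0.05. The fit was also run on simulated data with equal noise at all sites. Those data had no library-wide shifts and no recurring values, so the simulation did not cover these features. No filter on low values was applied, so all 328 entries were fitted. Positions are 1-based hg38. All 10 symbols matched RefSeq, and all 31 sites with a window had the deposited motif. Sites set out for naming were each gene's 5'UTR and internal site of highest mean level, sites that passed the test and the 3 smallest p per direction. Not all of these are described above, several internal ones being left out. Other named sites were chosen after their values were seen. For the other pathway genes, those with the 5 highest 5'UTR means per table were ranked. The members and lists were chosen with earlier results of these data known. Alternatives were centring, pseudocounts, a filter, the replicate block, leaving out each library, the deposited p-values and no trend. Added after seeing the data were no pseudocount, classes by distance, a mean per gene and finely graded values.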

Additional observations from a re-analysis of the deposited data

How the results depend on the processing

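Over 17 counts and medians, 248 alternatives were run and 226 of them kept the direction or the count within the limits set. Over 49 single sites, 683 of 715 did. Most of the counts of called sites among the 17 stayed at 0 in every alternative. The share kept is therefore no measure of how stable the other results are. The only called site, PGK1 78104219, kept a negative change in all its alternatives, whereas some medians changed sign, as given below. In HEK293T the 5'UTR median was -0.35 and the 5'UTR minus internal difference -0.36 with the pseudocount at the table's median. The HEK293T internal median was 0.14 with each library centred on its median. With a filter at the lower quartile of the mean level it was -0.70 and the difference -0.23, where 5 internal sites were left and 4 of them lay within 50 bases of a start. Leaving out each library in turn gave HEK293T 5'UTR medians of -0.86 to -0.54.

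In BE(2)-C without ATRA the 1 called site became 0 under both centrings, without a variance trend and with the deposited p-values, and 2 with the replicate block, which added PGAM1 97426279. Leaving out a library gave 0 to 40 calls, 5'UTR medians of -0.71 to -0.26 and differences of -0.48 to -0.20. The 40 calls and the lowest values came without siScram replicate 1. Adjusted p of PGK1 78104219 ran from 0.000974 to 0.220 over its alternatives. Centring on the median of all sites or of internal DRACH sites gave 5'UTR medians of 0.054 and 0.084, against -0.43, and internal medians of 0.35 and 0.38, and the filter gave an internal median of -0.26.

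In BE(2)-C with ATRA no site was called under any alternative run. The 5'UTR median stayed negative, from -0.32 with each library centred on its median to -0.10 with the pseudocount at the table's median, and from -0.29 to -0.03 with a library left out. The internal median of 0.04 changed sign, from -0.11 with centring to 0.12 with no pseudocount, and from -0.17 to 0.22 with a library left out.

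The main fits did not pair libraries by replicate number, and the following correlations do not settle whether the numbers pair the samples. Deviations of same-numbered libraries correlated at 0.02, 0.01 and 0.00 in HEK293T, where each library correlated best with its own number, at 0.12, 0.00 and 0.01 without ATRA, and at -0.31, 0.06 and -0.26 with ATRA. The replicate block changed no other call. Depth behind each ratio is unknown, coarse values recur at many sites, 3 libraries a group limit every test, and fewer molecules and lower methylation cannot be told apart without the counts.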
